A study of Homo sapiens with 10 samples.

Results

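The Notch genes described here are 10 genes of human ARPE-19 cells: the ligands JAG1, JAG2 and DLL1, the receptors NOTCH1, NOTCH2 and NOTCH3, and the targets HES1, HEY1, HEY2 and HEYL. They were chosen by gene symbol, and each of the 10 has 1 row among the 22626 rows of the table of read counts. ARPE-19 is an established human line of retinal pigment epithelium (RPE), the pigmented layer behind the photoreceptors. The cells were kept for 48 h in control medium (5.5 mM D-glucose with 32 mM mannitol, n = 5) or in high glucose (HG) medium with 37.5 mM D-glucose (n = 5). Mannitol, a sugar alcohol, was given to the control cells so that both media held as much dissolved sugar, and the comparison asks what high glucose does to the transcriptome of these cells. Neither group carried a genetic change in the labels, and all 10 libraries come from 1 cell line. Nothing in the labels says that the libraries of a group came from separate cultures, so the p-values measure only the spread between these libraries, which may be technical.

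Notch is a receptor that signals between touching cells. A ligand of the Jagged or Delta-like family on one cell pulls on the receptor of its neighbour, ADAM proteases and then the γ-secretase complex cut the receptor, and the freed intracellular part enters the nucleus. There it binds the DNA-binding protein RBPJ and a Mastermind coactivator and displaces corepressors, and genes of the HES and HEY families, which encode repressors of transcription, are switched on. In the eye the pathway is known for holding retinal progenitors in an undifferentiated state and for shaping blood vessels, and in epithelia it takes part in changes of cell state.

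Between the groups, HEY1 rose in HG, NOTCH3, which is barely expressed, fell, and the other 6 genes that could be tested did not pass the threshold. Genes were compared with edgeR's quasi-likelihood test on the counts after TMM normalization, a scaling of each library, and p was adjusted by the Benjamini-Hochberg method over the 14936 rows that passed edgeR's filter on low counts. Of the 10 genes 8 passed that filter, and 2 of these had an adjusted p under 0.05, 1 higher and 1 lower in HG. Over all rows tested, 15.4% had an adjusted p under 0.05, with 7.62% higher and 7.8% lower in HG. The median log2 fold change was -0.03 over the 8 genes and 0.00 over all rows tested, where a log2 fold change is HG minus control. HEY2 and HEYL had too few reads to be tested.

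The libraries held between 33039260 and 45864176 counts in the control group and between 32448991 and 44400714 in HG. The limit that a count of 0 allows, 3 counts, corresponds to between 0.0669 and 0.0912 CPM, the count of a gene scaled to a fixed library total, and it covers counting error only. The HG libraries are named by their deposited column (HG_1 to HG_5), because the labels gave only their group, and the control libraries by the number in their title. Control 2 and HG_1 stood apart from the other 8 libraries on the second principal component, which held 14.9% of the variance. In both, the counts rose with the GC content of the gene, by 0.170 and 0.188 on the log2 scale per 10 points of GC against -0.0916 to -0.00519 in the other libraries. Values without these libraries are given beside results where they bear on the reading. No 2 libraries of 1 group agreed within sampling noise in any of the 20 possible pairs. Among the markers of RPE, MITF and OTX2, transcription factors of RPE identity, were read in every library, with at least 1691 and 2902 counts, whereas TTR and RGR were at 0 in all libraries and RPE65, the isomerase of the visual cycle, had 6 counts in total.

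Many targets of the pathway are known to carry sites for RBPJ near their start, and the letters before the start sites are shown for that reason. The sequences are RefSeq promoters on GRCh38.p14, and 8 of the 10 genes have an entry. DLL1 and HEY1 have none. Searched on both strands over the 250 bases before the start site were GTGGGAA, the core that RBPJ binds, its shorter part TGGGAA, which lies within it, and CACGTG and CACGAG, the E-box and N-box letters that HES and HEY proteins bind. GTGGGAA stood before 3 of these 8 genes, the targets HES1, HEY2 and HEYL, and before none of JAG1, JAG2, NOTCH1, NOTCH2 and NOTCH3. Of all 27305 promoters 5.46% hold GTGGGAA, 21.1% hold TGGGAA, 6.49% hold CACGTG and 5.62% hold CACGAG. In the lines below, capitals mark GTGGGAA or TGGGAA or their reverse complements, and each line runs 5′ to 3′ along the strand of the gene.
HES1 promoter: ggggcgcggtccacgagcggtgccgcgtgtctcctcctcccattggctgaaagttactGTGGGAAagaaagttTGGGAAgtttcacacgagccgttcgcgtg
HEY2 promoter: ccgcggccgcgTTCCCACgcctcggctgg
HEYL promoter: cgcctagggccTTCCCACggctcggcggc

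The HES1 stretch is chr3:194136005-194136106 on the plus strand and covers positions -143 to -42 from the start site. It holds GTGGGAA at -85 and a second TGGGAA at -70, both on the strand of the gene, and CACGAG at -132 and -58. The HEY2 stretch, chr6:125749408-125749436 on the plus strand, covers -224 to -196 and holds the reverse complement of GTGGGAA at -213. In GENCODE release 29 it lies before the start of the shorter HEY2 transcript and in an intron of the longer one. The HEYL stretch, chr1:39639804-39639832 on the minus strand, covers -189 to -161 and holds the reverse complement at -178. The HEYL gene of the same release begins farther upstream, so that this stretch lies in the untranslated first part of its transcript HEYL-201. CACGTG was found before none of the 8 genes, and CACGAG was found before HES1 and, at -211, before NOTCH3. A match of letters is a description of the reference sequence and not a measurement of binding.

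JAG1 and JAG2 encode the Jagged ligands, and neither differed between the groups beyond the spread of the libraries. JAG1 lies on chromosome 20 (10637684-10673999, minus strand, GRCh38, as are all gene positions here). Its level was 33.7, 23.3, 28.5, 28.4 and 30.1 CPM in control 1 to 5 and 22.1, 31.9, 28.8, 31.4 and 29.1 CPM in HG_1 to HG_5. The lowest value in each group was that of control 2 and of HG_1, and the ranges overlapped. The log2 fold change was -0.01 ± 0.12 (SE), with a 95% interval of -0.26 to 0.25 (adjusted p = 0.978). Without control 2 and HG_1 it was 0.01 ± 0.06, so the SE fell from 0.115 to 0.0649 on the log2 scale. An exon of JAG1 overlaps the antisense gene AL050403.2 on the opposite strand, and whether the counting used strand is not given in the sources used here.

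JAG2 (chromosome 14, 105140981-105168824, minus strand) was measured at 9.55, 9.44, 10.8, 8.35 and 10.1 CPM in the control libraries and at 10.7, 9.11, 10.1, 8.09 and 8.27 CPM in the HG libraries. These values covered almost the same range in both groups. The log2 fold change was -0.06 ± 0.10, with a 95% interval of -0.29 to 0.17 (adjusted p = 0.766). The transcript AL512356.1 overlaps JAG2 on the same strand, and 6.47% of the 100-base windows of the JAG2 transcript also occur in it. Part of the JAG2 counts is thus uncertain. The share of windows is not a share of reads, and how shared reads were assigned is not given in the sources used here.

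DLL1, a Delta-like ligand (chromosome 6, 170282206-170306565, minus strand), was close to the limit of detection. It had 10, 8, 9, 9 and 6 counts in control 1 to 5 and 9, 13, 15, 11 and 7 counts in HG_1 to HG_5, which were 0.135 to 0.303 CPM and 0.213 to 0.334 CPM. The 2 groups overlapped, and the log2 fold change was 0.39 ± 0.31, with a 95% interval of -0.30 to 1.07 (adjusted p = 0.475). The interval includes a rise as well as a fall.

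NOTCH2 (chromosome 1, 119911553-120069626, minus strand) was the most abundant of the 3 receptors. Its counts were between 10992 and 15698 in the control libraries and between 9275 and 14794 in HG. In CPM, control 1 to 5 held 342.1, 249.2, 325.4, 332.6 and 352.6, and HG_1 to HG_5 held 240.9, 350.2, 329.7, 355.6 and 349.7. The 2 lowest values were again control 2 and HG_1, and the other 8 libraries lay between 325.4 and 355.6 CPM whatever the medium. The log2 fold change was 0.02 ± 0.12 (95% interval -0.24 to 0.29, adjusted p = 0.934), and without control 2 and HG_1 it was 0.04 ± 0.03 (adjusted p = 0.498). NOTCH2 has partial copies on the same chromosome, the NOTCH2NL genes, and 1.82% of its 100-base windows occur in other genes. NOTCH2NLA, NOTCH2NLB, NOTCH2NLC and NOTCH2NLR had 893 to 1911, 609 to 1286, 337 to 986 and 12 to 30 counts per library, and how reads shared with them were assigned is not given in the sources used here.

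NOTCH1 (chromosome 9, 136494433-136545786, minus strand) was read at 19.5, 13.9, 17.6, 17.3 and 18.5 CPM in the control libraries and at 14.1, 16.2, 13.9, 14.9 and 18.3 CPM in the HG libraries. Of the 5 HG libraries 4 lay below the 4 control libraries other than control 2, and the ranges overlapped because of control 2 and HG_5. The log2 fold change was -0.16 ± 0.11, with a 95% interval of -0.40 to 0.07 (adjusted p = 0.363), and -0.20 without control 2 and HG_1 (adjusted p = 0.140). With the trend of each library on GC content and length removed, it was -0.05 (adjusted p = 0.808).

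NOTCH3 (chromosome 19, 15159038-15200981, minus strand), a receptor best known from the mural cells of blood vessels, fell in HG from an already low level. Control 1 to 5 had 28, 27, 38, 12 and 20 counts, and HG_1 to HG_5 had 11, 9, 8, 8 and 12 counts. In CPM these were 0.849, 0.606, 0.914, 0.363 and 0.449 in control and 0.286, 0.218, 0.178, 0.243 and 0.365 in HG. The groups met at one point only, where HG_5 (0.365 CPM) lay just above control 4 (0.363 CPM). The log2 fold change was -1.30 ± 0.33, with a 95% interval of -2.03 to -0.57 (adjusted p = 0.0227), a level 2.46-fold lower in HG, and without control 2 and HG_1 it was -1.36 (adjusted p = 0.0390). The call was lost when control 1 (adjusted p = 0.0606), control 3 (0.0621), HG_2 (0.0594), HG_3 (0.0627) or HG_4 (0.0536) was left out, while the log2 fold change then stayed between -1.28 and -1.13. On the FPKM values, where small values are damped by the number added before taking logarithms, the gene did not pass the test, with an adjusted p of 0.274 for log2(FPKM + 1) and 0.138 for log2(FPKM + 0.1).

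Markers of RPE and of other cell types were counted in the same comparison. Over all rows tested, 7.8% were lower in HG. Of 5 markers of mesenchymal or contractile cells 4 were lower in HG, among them TAGLN (log2 fold change -1.30) and COL1A1 (-1.33). VIM, the most abundant of them, went the other way (log2 fold change 0.11) and did not pass the test (adjusted p = 0.168). The summed level of the list was 6203 to 6715 CPM in control and 6312 to 7238 CPM in HG. Of 5 endothelial markers 2 could be tested and 1, KDR, was lower (-0.63, adjusted p = 0.0452), with a summed level of 2.93 to 5.05 CPM in control and 2.13 to 3.13 CPM in HG. CDH5 was at 0 in all libraries and PECAM1 had 6 counts in total. Of 5 markers of neural retina or glia 3 were at 0 in all libraries, among them CRX, a transcription factor of photoreceptors. GLUL was read at 99.6 to 111.8 CPM in control and 97.6 to 108.6 CPM in HG. It was the only 1 of the 5 tested and did not pass (adjusted p = 0.843). Of the 4 epithelial markers 2 could be tested, the keratins KRT8 and KRT18, and both were lower in HG, with a summed level of 2661 to 3288 CPM in control and 1638 to 2315 CPM in HG, which did not overlap. Of the 9 RPE markers tested 1, PMEL, was lower, and the summed level of the RPE list was 174.6 to 726.6 CPM in control and 156.9 to 171.3 CPM in HG, which did not overlap either. BEST1, a chloride channel of the RPE, ranged from 0.577 to 551.5 CPM within the control group against 0.981 to 7.79 CPM in HG and did not pass the test (log2 fold change -4.97, adjusted p = 0.0670). The part of these markers in the values of NOTCH3 and HEY1 was not tested, and in bulk RNA fewer cells of a kind and less RNA per cell cannot be told apart.

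**Figure D1:**
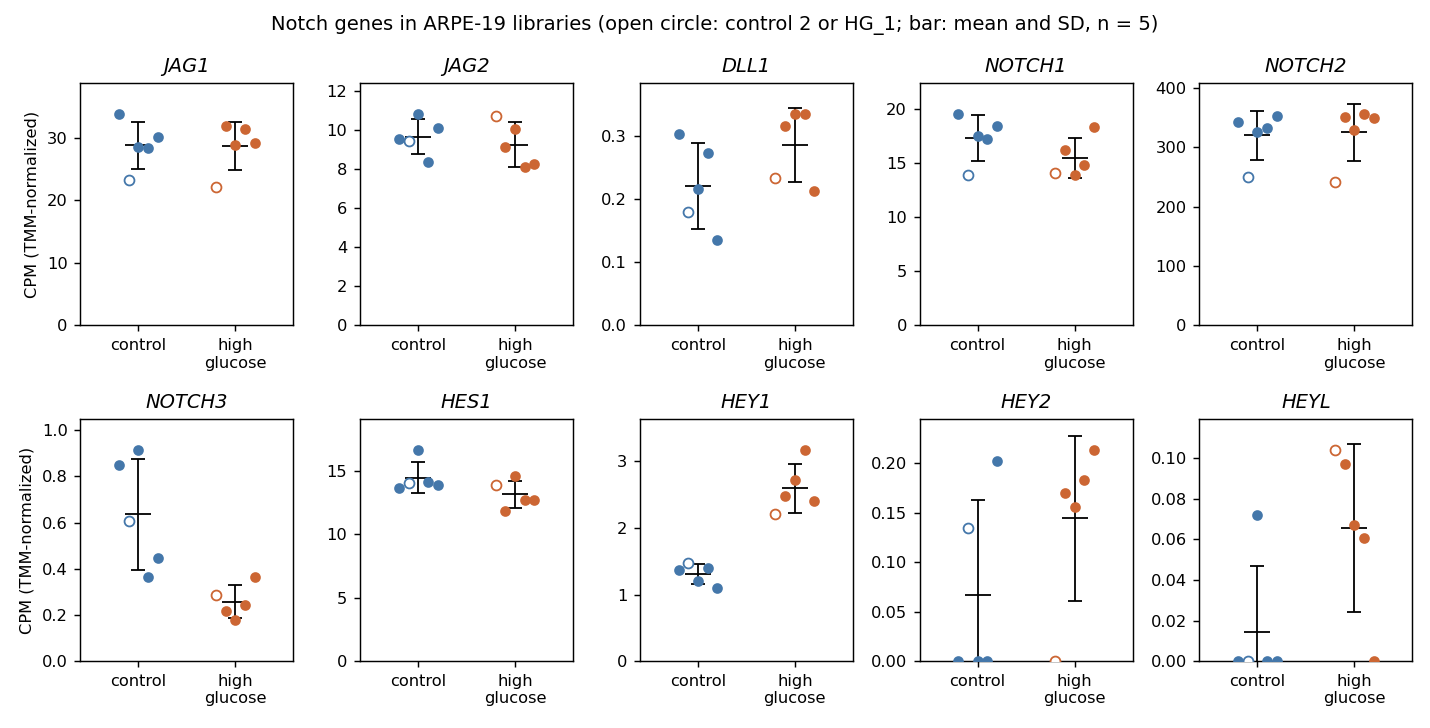
Level of each of the 10 Notch genes in TMM-normalized CPM (vertical axes, from 0 and different for each gene) in the 5 control and 5 HG libraries, with 1 point per library, bars for the mean and SD, and open circles for control 2 and HG_1. The 5 HG points of HEY1 all lie above the 5 control points, those of NOTCH3 lie low and meet the control points at 0.363 and 0.365 CPM, and the open circles are the lowest points of NOTCH2 and JAG1.

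Of the targets, HES1 and HEY1 had enough reads to be tested, and HEY1 passed the test and HES1 did not. The difference between their changes was not tested. HES1 (chromosome 3, 194136145-194138732, plus strand), the repressor most often used as a readout of Notch activity, had 451, 625, 692, 468 and 619 counts in the control libraries and 535, 490, 655, 418 and 417 in the HG libraries. In CPM these were 13.7, 14.0, 16.6, 14.2 and 13.9 in control and 13.9, 11.9, 14.6, 12.7 and 12.7 in HG. The ranges overlapped, with 3 HG libraries below every control library. The log2 fold change was -0.14 ± 0.08, with a 95% interval of -0.32 to 0.04 (adjusted p = 0.310).

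HEY1 (chromosome 8, 79764010-79767863, minus strand), a repressor of the hairy-related family that Notch induces in vessels and other tissues, rose in HG. It had 45, 66, 50, 46 and 49 counts in control 1 to 5 and 85, 102, 122, 104 and 79 counts in HG_1 to HG_5. In CPM these were 1.36, 1.48, 1.20, 1.39 and 1.10 in control (mean 1.31 ± 0.153, SD, n = 5) and 2.21, 2.47, 2.72, 3.16 and 2.40 in HG (mean 2.59 ± 0.367, SD, n = 5). All 5 HG libraries lay above all 5 control libraries, and HEY1 was the only one of the 10 genes whose groups did not overlap in CPM, against 13.6% of all rows tested. The level was 1.98-fold higher in HG, a log2 fold change of 0.99 ± 0.16 with a 95% interval of 0.64 to 1.33 (adjusted p = 0.00199), which placed it 504 in the order of p over the rows tested. Without control 2 and HG_1 the log2 fold change was 1.09 (adjusted p = 0.00189). The deposited FPKM values, a second measure from the same reads, did not overlap either: 0.569, 0.588, 0.506, 0.437 and 0.263 in control and 0.897, 1.01, 1.12, 1.59 and 1.04 in HG. FPKM is not a fixed multiple of CPM for this gene: control 3 and control 5 had 1.20 and 1.10 CPM but 0.506 and 0.263 FPKM.

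The 2 targets can also be set side by side within a library. Per length, HES1 was 13.6 to 31.3 times HEY1 in the control libraries (median 19.1) and 4.75 to 8.79 times in the HG libraries (median 7.19). Of the summed FPKM of the 4 targets, HEY1 held 3.08% to 6.81% in control and 10.2% to 17.3% in HG. The extremes of the ratio, 31.3 and 4.75, came from control 5 and HG_4, which held the lowest and the highest HEY1 value in FPKM. These ratios contain the HEY1 values given above and are no separate evidence.

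**Figure D2:**
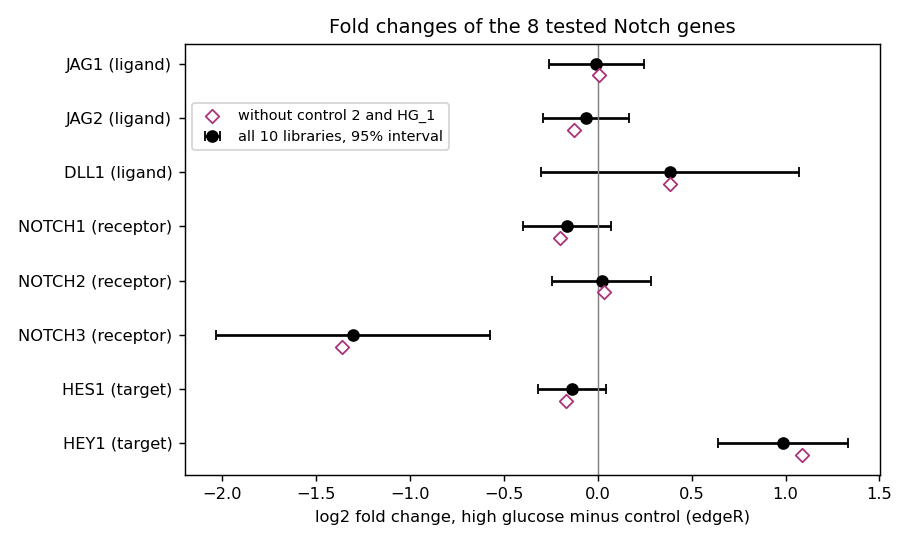
Log2 fold change, HG minus control (horizontal axis), of the 8 tested Notch genes from edgeR, with black points and 95% intervals for all 10 libraries and open diamonds for the fit without control 2 and HG_1. The intervals of HEY1 (0.64 to 1.33) and NOTCH3 (-2.03 to -0.57) lie clear of 0, those of the other 6 genes include 0, and the diamonds lie within the intervals.

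HEY2 and HEYL, relatives of HEY1 with roles in the heart and in muscle and vessels, were at or near the limit of detection. HEY2 (chromosome 6, 125747664-125761269, plus strand) had 0, 6, 0, 0 and 9 counts in control 1 to 5 and 0, 7, 7, 6 and 7 counts in HG_1 to HG_5. It was thus read in 4 HG libraries and in 2 control libraries, and the highest values of the groups lay close together (0.202 CPM in control 5 and 0.213 CPM in HG_5). HEYL (chromosome 1, 39624153-39639945, minus strand) had 3 counts in control 3 and 0 in the other control libraries, and 4, 4, 3, 2 and 0 counts in HG_1 to HG_5. No fold is given for either gene, because the libraries at 0 allow up to 3 counts each. Kept in a fit with no filter on low counts, neither passed the test (adjusted p = 0.649 for HEY2 and 0.343 for HEYL).

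The levels of different genes can be compared only per length, for which the deposited FPKM values serve. In this order the mean over all 10 libraries was 26.3 FPKM for NOTCH2, 8.12 for HES1, 4.50 for JAG1, 1.57 for NOTCH1, 1.51 for JAG2 and 0.803 for HEY1. DLL1, NOTCH3, HEY2 and HEYL followed at 0.0594, 0.0462, 0.0339 and 0.00707 FPKM. NOTCH2, HES1 and JAG1 held separate ranges (19.0 to 29.3, 7.11 to 9.80 and 3.33 to 5.24 FPKM), whereas NOTCH1 and JAG2 overlapped and their order is not resolved. HEY1 lay below both in every control library, and in HG its highest value (1.59 FPKM, HG_4) exceeded those of NOTCH1 and JAG2 in that library (1.43 and 1.32 FPKM). In the other HG libraries HEY1 lay below both. As said above, FPKM is not a fixed multiple of CPM for HEY1. Among the 4 lowest genes neighbours in the order overlapped, and their order differed between the groups. In control the mean of NOTCH3 (0.0661 FPKM) lay above that of DLL1 (0.0513), and in HG the mean of NOTCH3 (0.0263) lay below that of HEY2 (0.0461).

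Among the receptors, NOTCH2 held 93.5% to 94.1% of the summed FPKM of NOTCH1, NOTCH2 and NOTCH3 in control and 93.5% to 95.3% in HG. Among the ligands, JAG1 held 70.1% to 76.7% of the summed FPKM of JAG1, JAG2 and DLL1 in control and 66.0% to 78.2% in HG. By FPKM the leading receptor and ligand were thus NOTCH2 and JAG1 in both media. Both shares overlapped between the groups.

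**Figure D3:**
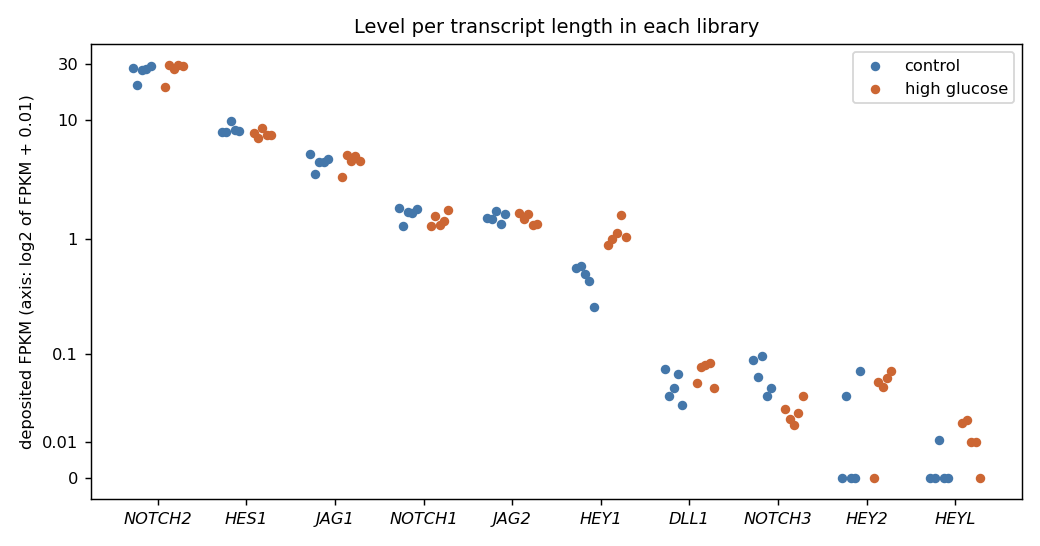
Deposited FPKM of the 10 Notch genes in each library (vertical axis, placed on a scale of log2 of FPKM + 0.01), ordered by their mean over the 10 libraries, with blue points for control and orange points for HG. NOTCH2 lies highest, between 19.0 and 29.3 FPKM, the ranges of NOTCH1 and JAG2 overlap, and HEY1 is the gene whose orange points all lie above its blue points.

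The rest of the pathway was described with a list of 62 further genes, grouped by role. Of these 53 passed the filter and 9 had an adjusted p under 0.05, 2 higher and 7 lower in HG, which is 17.0% against the 15.4% of all rows tested. The median log2 fold change of the 53 was -0.04. The share called was thus near that of all genes. Without control 2 and HG_1, 18 of the list passed the test, 4 higher and 14 lower, beside 27.1% of all rows in that fit. With the trend of each library on GC content and length removed, 16 passed, 7 higher and 9 lower, beside 29.3% of all rows, so the preponderance of lower genes varied with the setting.

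Among the other ligands and receptors nothing was called. DLL3 (log2 fold change 0.12 ± 0.22, adjusted p = 0.792) and DLK2 (0.34 ± 0.33, adjusted p = 0.555) were tested. DLL4, the ligand of vessel sprouts, and NOTCH4 had 7 and 59 counts in total over the 10 libraries and were not tested, and DLK1 was at 0 in all of them.

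Among the proteases and the enzymes that put sugars on the receptor, 3 genes passed the test. These were 1 of 9 and 2 of 7 tested, beside 15.4% of all rows tested. APH1B, a subunit of γ-secretase, rose from 26.0 ± 1.98 to 32.4 ± 2.44 CPM (SD, n = 5 each, log2 fold change 0.31 ± 0.07 SE, adjusted p = 0.0141). GXYLT2, a xylosyltransferase that extends O-glucose on the receptor, rose from 2.08 ± 0.295 to 3.74 ± 0.903 CPM (log2 fold change 0.84 ± 0.19, adjusted p = 0.0122), the largest change among the 9. XXYLT1, which adds the next xylose, fell from 19.9 ± 0.671 to 16.7 ± 1.07 CPM (log2 fold change -0.26 ± 0.06, adjusted p = 0.0175). The groups did not overlap in CPM in any of these 3 genes, against 13.6% of all rows tested. The 3 were picked by the test on the same counts, so this is no separate evidence. In FPKM the groups of APH1B overlapped, and it did not pass in the 3 settings on FPKM values. ADAM10, the protease that makes the first cut after ligand binding, was at 208.0 ± 29.5 CPM in control and 158.2 ± 25.0 CPM in HG and missed the threshold (log2 fold change -0.39 ± 0.13, adjusted p = 0.0631), and it passed without control 2 and HG_1 (-0.37 ± 0.05, adjusted p = 0.00138). In that fit 1 of the 9 proteases and secretase subunits was higher and 1 lower, and of the 7 tested glycosyltransferases 2 were higher and 1 lower. Of all rows, 27.1% were called in that fit. ADAM10, like MIB2 below, is named outside the rule for named genes, having been chosen after its values were seen.

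Of 9 tested genes of receptor turnover 2 fell, beside 7.8% of all rows tested that were lower in HG. NUMBL, a relative of the Notch antagonist NUMB, went from 25.0 ± 1.43 to 18.1 ± 1.38 CPM (log2 fold change -0.47 ± 0.07, adjusted p = 0.00126). DTX4, a ubiquitin ligase of the Deltex family, went from 24.4 ± 1.43 to 19.3 ± 1.92 CPM (log2 fold change -0.34 ± 0.08, adjusted p = 0.0136), and it did not pass in the 3 settings on FPKM values, where its groups overlapped. Without control 2 and HG_1, 1 gene of this role was higher and 2 were lower, beside 27.1% of all rows called. With the GC and length trend removed 2 were higher and 2 were lower, beside 29.3% of all rows called. Of the 3 tested genes of ligand endocytosis 0 were called in edgeR, and 0 also had an unadjusted p under 0.05. Without control 2 and HG_1, however, MIB2, a ubiquitin ligase for the ligands, passed the test (log2 fold change -0.25 ± 0.05, adjusted p = 0.00645).

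In the nucleus, RBPJ itself did not pass the test (57.2 ± 4.34 CPM in control and 60.2 ± 6.01 CPM in HG, log2 fold change 0.07 ± 0.08, adjusted p = 0.620). The coactivator MAML1 fell from 15.4 ± 1.83 to 12.4 ± 0.723 CPM (log2 fold change -0.31 ± 0.09, adjusted p = 0.0450), and this call held in only 6 of 21 alternative settings. Its groups overlapped. Leaving out control 2 and HG_1, 3 of the 7 genes of the activator complex were lower, and with the GC and length trend removed 1 was lower. Those fits called 27.1% and 29.3% of all rows in either direction. Among 13 corepressors 3 passed the test, and all 3 fell, beside 7.8% of all rows tested that were lower in HG. In the fit without control 2 and HG_1, 6 were lower, and with the GC and length trend removed 3 were lower and 1 was higher. The shares of all rows called in these fits, 27.1% and 29.3%, were above that of the main fit. TLE4, a Groucho corepressor, went from 32.1 ± 2.16 to 23.4 ± 1.45 CPM (log2 fold change -0.45 ± 0.06, adjusted p = 0.00113). FHL1 went from 19.6 ± 2.95 to 13.7 ± 1.498 CPM (log2 fold change -0.52 ± 0.12, adjusted p = 0.0125). Of FHL1, a LIM-domain gene of muscle, only a short isoform binds RBPJ, and the counts do not separate isoforms. Among further targets and feedback genes, 3 of 6 could be tested and 0 were called, with 0 at an unadjusted p under 0.05 too.

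**Figure D4:**
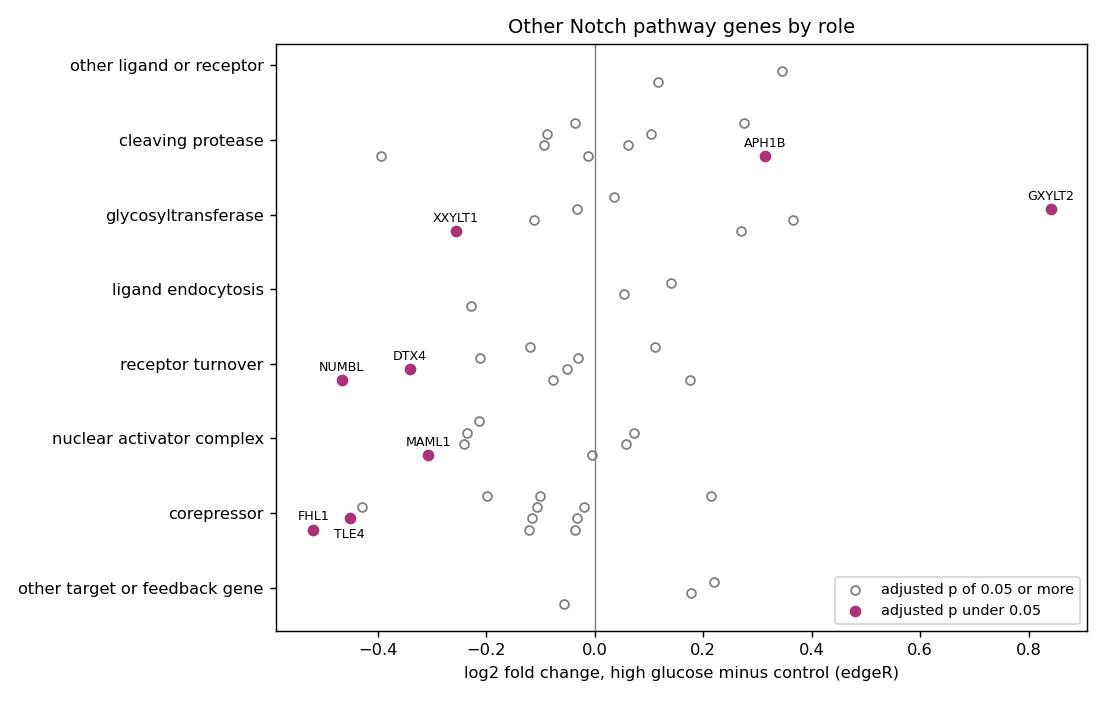
Log2 fold change, HG minus control (horizontal axis), of tested genes of the wider Notch pathway, 1 point per gene in rows by role, with filled and named points for an adjusted p under 0.05 in edgeR. The 2 filled points right of 0 are APH1B and GXYLT2, the 6 left of 0 are XXYLT1, NUMBL, DTX4, MAML1, TLE4 and FHL1, and the vertical place within a row carries no value.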

How the data were processed

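RNA of ARPE-19 cells was sequenced in 5 control and 5 HG libraries. The authors deposited whole-number counts per gene, not normalized, and a second table with FPKM, reads scaled by the authors to the length of the transcript and the size of the library. The submitters' processing notes name fastp 0.20.1, HISAT2 2.2.1 and GRCh38, and the counting program, its strand setting and the annotation are not given in the sources used here. Rows named MSTRG, loci with no gene name, held 1.34% to 1.65% of the counts of a library and stayed in the fit as the table gives them. Counts were tested with edgeR 4.0.16 in R 4.3.3 (default filter on low counts, TMM, quasi-likelihood test, Benjamini-Hochberg over 14936 rows, threshold 0.05). CPM values were scaled by TMM.

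The 10 genes, the pathway list and the marker lists were chosen with earlier results of these data known. Genes named in the text are all 10 genes, pathway genes with an adjusted p under 0.05, RBPJ, ligands or receptors at 0, and a few markers. Some genes of these lists are counted in the totals and are not otherwise reported or plotted here. Alternatives were RLE size factors or library size alone in place of TMM, DESeq2 1.42.0, other filters, limma 3.58.1 on log2(FPKM + 1) and log2(FPKM + 0.1) and on rows with a mean FPKM of at least 1, 1 surrogate variable from sva 3.50.0, a fit with the trend of each library on GC content and length removed (13538 rows, 90.6% of those tested), and libraries left out. The steps were tested on simulated data. Gene positions come from GENCODE release 29, and promoters from RefSeq on GRCh38.p14.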

Additional observations from a re-analysis of the deposited data

Results flagged for a closer look

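Of 20 groups of 5 libraries tested, 2 for each of the 10 genes, 5 held a library set apart from its group by a gap above Dixon's 95% critical value (0.71 of the range), where chance gives about 1. NOTCH2 was set apart in control 2, at 249.2 CPM against 325.4 to 352.6 CPM in the other control libraries (gap 0.737 of the range), and in HG_1, at 240.9 CPM against 329.7 to 355.6 CPM in the other HG libraries (gap 0.774). These are the 2 libraries whose counts rose with GC content, and the part of that trend in the NOTCH2 values was not tested. HES1 was set apart in control 3, at 16.6 CPM against 13.7 to 14.2 CPM (gap 0.835). HEY2 was at 0 CPM in HG_1 against 0.156 to 0.213 CPM (gap 0.733). HEYL was at 0.0721 CPM in control 3, which is 3 counts, against 0 in the other control libraries. Its gap of 1 follows from the 4 libraries tied at 0, so that HEYL says nothing beside the number that chance gives.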

How the results depend on the processing

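HEY1 passed the test in all 20 alternatives that gave it a value, with a log2 fold change of 0.91 to 1.04 with 1 library left out and 0.53 to 1.12 otherwise, and an adjusted p of at most 0.00797. NOTCH3 kept its direction in 19 alternatives and passed in 12. It did not pass in limma on log2(FPKM + 1) (-0.0546) or log2(FPKM + 0.1) (-0.38), and with 1 library left out it lay between -1.45 and -1.13 (adjusted p 0.0186 to 0.0627). Filters of at least 10 counts in every library or of a mean of at least 1 FPKM removed NOTCH3 and DLL1, and the latter removed HEY1. Accordingly, of the 10 genes 1 passed with at least 10 counts in every library and with limma on either FPKM scale, 0 where a mean FPKM of at least 1 was asked for, and 1 to 2 with 1 library left out. The other 6 tested genes passed in none of their alternatives, and the sign of JAG1, JAG2 and NOTCH2 varied around 0. Of the pathway list 5 genes passed under that filter on FPKM, 14 with 1 surrogate variable, 16 with the GC and length trend removed and 18 without control 2 and HG_1, against 9. The same 3 settings raised the calls over all rows from 2303 to 4008, 3968 and 4035, and the cause was not tested. The deposited columns of both groups are numbered, but the titles of the HG samples carry letters, nothing in the labels says that equal numbers mark paired libraries, and no fit with the column number as a block was made. Counts of 0 to 15, as for DLL1, HEY2, HEYL and NOTCH3 in HG, limit what these libraries can show of those genes.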
